A study of Mus musculus with 7 samples.

Results

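Potassium channels set the resting potential of a neuron, end its action potentials and limit how fast it can fire. The Kcn genes encode the pore-forming subunits of the voltage-gated (Kv), calcium- and sodium-activated and inward-rectifier channels, together with auxiliary subunits that change the gating or the trafficking of the pore. Kv channels open on depolarization, calcium-activated channels open as calcium enters during firing, and inward rectifiers pass current into the cell more readily than out of it. The members were all gene symbols beginning with Kcn in the count tables, without the leak channel genes Kcnk (14 symbols), Kcnj13 and 3 noncoding transcripts. They numbered 79 of the 24062 symbols counted, of which 62 encoded pores and 17 auxiliary proteins.

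The samples were 4 temperature-responsive and 3 non-responsive samples of ERα+ neurons from the medial preoptic area, a hypothalamic region that takes part in the control of body temperature. Each sample pooled the contents of 2 neurons that had been drawn into the patch pipette. All neurons were ZsGreen positive and came from the Esr1-ZsGreen line (ERα-ZsGreen in the study's text), a transgenic reporter of estrogen receptor α that the study's methods describe as females of 10 to 14 weeks on a C57BL/6J background. All slices were recorded during a temperature rise of 5 °C, from 25 °C to 30 °C, and the groups differed in whether firing responded to it. The methods and results of the study word the cutoff for a response differently. The labels do not say which animals the neurons came from, so p-values measure the spread between these samples, which may be partly technical.

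Totals were between 1914497 and 2814360 counts in temperature-responsive samples and between 3309361 and 5125280 in non-responsive samples, and the group with lower totals had more genes detected (19852 to 21177 against 17818 to 19820). Levels are given in CPM, the standard depth-scaled count unit, with TMM-adjusted totals, and a floor of 3 counts was worth between 0.564 and 1.62 CPM. Ddx3y, a gene of the Y chromosome, had between 684 and 1150 counts in every sample, and Xist had between 2 and 14, whereas the mice are described as females. Esr1, the gene behind the reporter, had between 10 and 27 counts. Markers of oligodendrocytes, astrocytes, microglia and vessels were counted beside those of neurons in every sample, and a smaller share of a cell type and less RNA per cell cannot be told apart in pooled material. Each of these facts holds for every result below, and their part in the results was not tested.

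The pore-forming members share a selectivity filter, the narrow stretch of the pore that passes potassium and holds back sodium. A filter of 5 codons (threonine or serine, then a small hydrophobic residue, glycine, tyrosine or phenylalanine, and glycine) was found exactly once in the coding sequence of each of the 62 pore-forming members, with tyrosine at the fourth codon in 49 and phenylalanine in 13, and in none of the 17 auxiliary members. The 45 bases around it are given here for pore-forming members whose levels are described in full, 5′ to 3′ on the coding strand of GENCODE M21 transcripts (mm10), with the 15 bases of the filter in capitals.
Kcna1 (chr6:126642213-126642257, minus strand): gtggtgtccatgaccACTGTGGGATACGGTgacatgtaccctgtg
Kcna6 (chr6:126738632-126738676, minus strand): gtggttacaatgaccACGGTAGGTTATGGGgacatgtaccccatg
Kcnc2 (chr10:112456214-112456258, plus strand): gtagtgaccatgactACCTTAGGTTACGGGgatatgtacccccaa
Kcnd2 (chr6, plus strand, across the junction of exons 1 and 2): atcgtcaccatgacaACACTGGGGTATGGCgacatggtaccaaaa
Kcnh5 (chr12:75087451-75087495, minus strand): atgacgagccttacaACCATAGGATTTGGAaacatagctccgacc
Kcnma1 (chr14:23528398-23528442, minus strand): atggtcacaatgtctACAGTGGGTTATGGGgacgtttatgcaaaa
Kcnn4 (chr7:24379183-24379227, plus strand): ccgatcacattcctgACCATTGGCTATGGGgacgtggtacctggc
Kcnj4 (chr15:79485352-79485396, minus strand): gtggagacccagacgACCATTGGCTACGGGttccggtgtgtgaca
Kcnj8 (chr6:142566433-142566477, minus strand): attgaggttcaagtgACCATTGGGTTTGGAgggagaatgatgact
Kcnj9 (chr1:172326169-172326213, minus strand): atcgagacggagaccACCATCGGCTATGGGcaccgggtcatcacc
The windows show how close relatives can be at this site. Kcna1 and Kcna6 had identical bases at 35 of the 45 positions, whereas Kcnj4 and Kcnj9 had 30 and Kcnj8 and Kcnj9 had 23. Reads within identical stretches cannot be assigned to one gene. The longest stretch of identical coding bases with another member was 91 bases for Kcna6 (with Kcna5), so that this count is uncertain to that extent. Exonic bases that a member shares with another gene model in the annotation are uncertain too, since the library kit does not mark strand. Among the members called these shares were from 2.34% to 9.10% in Kcnab1, Kcnj9, Kcnma1, Kcnip4 and Kcng2 and higher in Kcna6.

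The comparison asked whether the channel genes differed between neurons that responded to warming and neurons that did not. Of the 79 members, 64 had at least 10 counts in at least 3 samples and were tested with edgeR's quasi-likelihood test. Of these, 18 passed the threshold of 0.05 on the Benjamini-Hochberg adjusted p, 8 being higher and 10 lower in temperature-responsive neurons. This share (28.1%) is near the background, since 30% of the 14407 genes tested passed the same threshold (15.1% higher and 14.9% lower), so the number of channel genes that differed is not a result about channels. The groups did not overlap in CPM for 25 members, against 35.4% of all genes tested, and 17 of the 64 (26.6%) were both called and apart, against 26.1% of all genes. The median log2 fold change, temperature-responsive over non-responsive, was -0.10 over the 64 members and 0.0070 over all genes, and the median size of the change was 0.35 and 0.31. Together the members took between 0.352% and 0.416% of the counts of a sample.

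The members that differed lay in 6 of the 7 functional classes, and in none of the classes did all tested members pass. Falls were found in the Kv1 genes Kcna1 and Kcna6, the BK channel gene Kcnma1, the inward rectifiers Kcnj4 and Kcnj9, the silent subunit Kcng2 and the calcium-binding subunits Kcnip2 and Kcnip3. Rises were found in the Kv pore genes Kcnc2 and Kcnd2, in Kcnip4 and Kcnab1, and in 4 genes of low level (Kcnj8, Kcnh5, Kcne4, Kcnn4). With GC content taken into account by an offset, 22 members passed the threshold (24.4% of all genes did), 4 higher (9.11% of all genes) and 18 lower (15.3% of all genes), so that the share of rises moved from 44.4% to 18.2% among the members called and from 50.3% to 37.3% among all genes called. When edgeR was given the genes detected in each sample as a covariate, 0 members passed, 14 had an unadjusted p under 0.05 (14.3% of all genes did), and 1 of all genes tested passed (0.00694%). DESeq2 without that covariate called 17, and 26.4% of all genes. The groups did not overlap in genes detected, so that it and the group cannot be told apart in these samples.

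**Figure D1:**
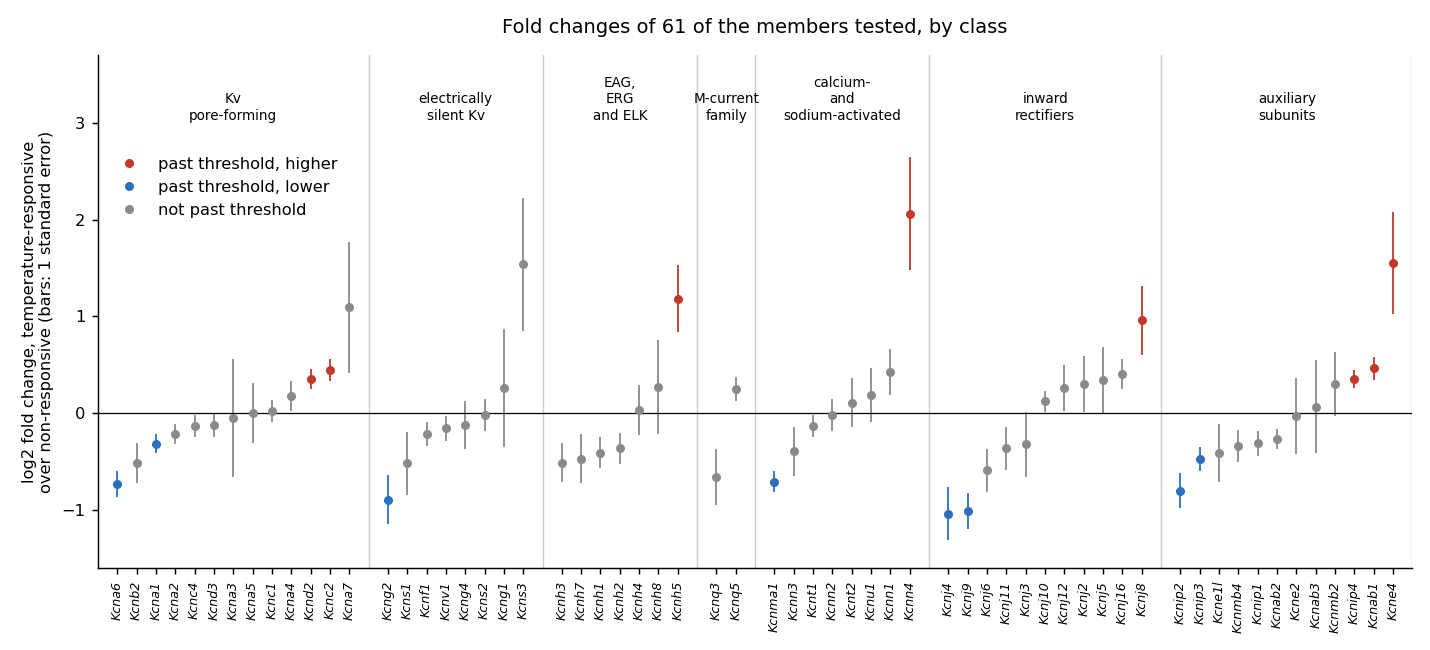
Log2 fold change (temperature-responsive over non-responsive, vertical axis) of 61 of the 64 members tested (horizontal axis), arranged by functional class, with bars of 1 standard error. Coloured points passed the threshold (8 higher, and 8 lower of those shown), and rises and falls stand side by side within the Kv, inward-rectifier and auxiliary classes.

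Kv channels of the Kv1 family carry currents that activate at low voltage and restrain repetitive firing. In what follows, the values of a gene are given for temperature-responsive replicates 1 to 4 and then for non-responsive replicates 1 to 3. Kcna1 (chr6:126640397-126646384, minus strand) had the highest level per kilobase of transcript of the Kv genes, 66.5 CPM per kilobase. Its level was 274, 217, 224 and 254 CPM against 293, 306 and 307 CPM, so that every non-responsive sample was above every temperature-responsive one. The difference was small (log2 fold change -0.31, SE 0.098, adjusted p = 0.0172), and without any one of 4 samples (temperature-responsive 2 or 3, non-responsive 2 or 3) it no longer passed, with an adjusted p of up to 0.0787.

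Kcna6 (chr6:126708329-126740674, minus strand) fell more clearly within the same family. It had 59.9, 43.6, 54.1 and 72.7 CPM against 89.0, 90.3 and 110 CPM, a mean of 57.6 ± 12.1 (SD, n = 4) against 96.3 ± 11.6 (SD, n = 3). The highest temperature-responsive sample was below the lowest non-responsive one, and the log2 fold change was -0.73 (SE 0.139, adjusted p = 0.000647). In the annotation 39.6% of its exonic bases also belong to another gene model, Gm26673, and how the authors assigned such reads is not given in the sources used here. Kcna2, which forms mixed channels with Kcna1 and was chosen for mention after its values were seen, had 286, 216, 234 and 245 CPM against 277, 302 and 274 CPM, with overlap between the groups (log2 fold change -0.21, adjusted p = 0.111, and 0.0203 without temperature-responsive replicate 1). With the GC offset it passed (log2 fold change -0.34, adjusted p = 0.0159), as it did without TMM scaling (adjusted p = 0.0256). Summed over the 8 Kcna genes, levels ran from 543 to 668 CPM in temperature-responsive and from 709 to 747 CPM in non-responsive samples, without overlap.

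The Kv3 genes encode channels that open at high voltage and close fast, which permits firing at high rates. Kcnc2 (chr10:112271121-112467024, plus strand) was higher, with 264, 230, 195 and 188 CPM against 159, 173 and 147 CPM. Its groups did not overlap, and the log2 fold change was 0.45 (SE 0.111, adjusted p = 0.00411). Kcnc1, chosen for mention after its values were seen, had 234, 145, 183 and 176 CPM against 192, 175 and 178 CPM, with full overlap (log2 fold change 0.03, SE 0.116, adjusted p = 0.891, and of the opposite sign without TMM scaling). With the GC offset the change in Kcnc2 was 0.32 (adjusted p = 0.0321).

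Kcnd2 encodes a Kv4 channel of the dendrite and cell body, where it carries the transient A-type current that delays the first spike. At chr6:21215503-21729805 (plus strand), it had 292, 295, 244 and 234 CPM against 212, 200 and 210 CPM. Every temperature-responsive sample was higher, with a log2 fold change of 0.35 (SE 0.101, adjusted p = 0.0101). The call was lost without non-responsive replicate 2 (adjusted p = 0.0550) and with the GC offset (log2 fold change 0.19, adjusted p = 0.171).

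**Figure D2:**
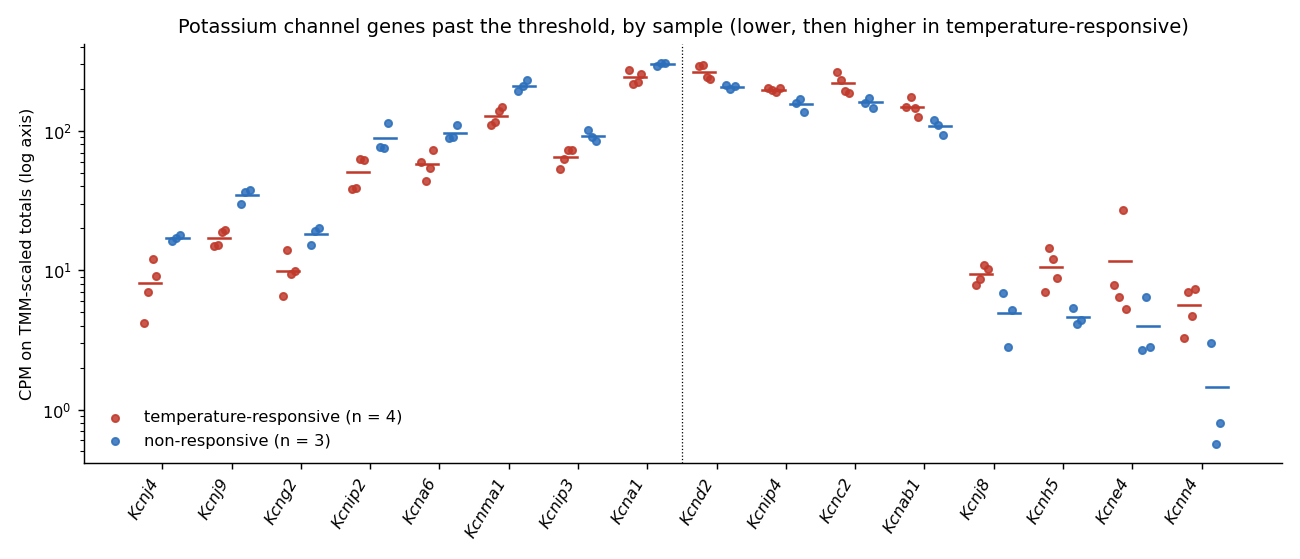
Level in CPM (vertical axis, log scale) of 16 of the 18 members past the threshold (horizontal axis, falls left and rises right of the dotted line) in the 4 temperature-responsive and 3 non-responsive samples, 1 point a sample, with the group mean as a line. The groups are apart for every gene shown but Kcne4, where temperature-responsive replicate 3 stands at 27.2 CPM.

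The KChIP proteins, encoded by Kcnip genes, are calcium sensors that bind Kv4 channels and shape the A-type current. Of their 4 genes, 3 passed, and in both directions. Kcnip4 (chr5:48389502-49524907, minus strand), whose level per kilobase was the highest among the auxiliary subunits (75.1 CPM per kilobase), rose from 159, 169 and 137 CPM in non-responsive samples to 202, 196, 192 and 203 CPM in temperature-responsive ones. Its log2 fold change was 0.36 (SE 0.0967, adjusted p = 0.00782), but 0.084 with the GC offset (adjusted p = 0.555), and the call was lost without non-responsive replicate 3 (adjusted p = 0.0755).

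Kcnip2 and Kcnip3 fell. Kcnip2 (chr19:45791839-45816061, minus strand) had 38.1, 38.8, 62.4 and 62.2 CPM against 77.0, 75.1 and 114 CPM, and the log2 fold change was -0.80 (SE 0.185, adjusted p = 0.00413). Kcnip3 (chr2:127456498-127522094, minus strand), which is also known as the transcriptional repressor DREAM, had 52.9, 62.4, 73.3 and 73.4 CPM against 101, 89.9 and 84.7 CPM (log2 fold change -0.47, SE 0.126, adjusted p = 0.00665), and lost its call when counts were drawn down to the lowest total (log2 fold change -0.35, adjusted p = 0.0954). In both, all temperature-responsive samples lay below all non-responsive ones. Since Kcnip2 and Kcnip4 were read in the same samples, their ratio needs no scaling for depth between samples. It is not freed from differences by GC content, which was 40.1% in the Kcnip4 transcript and 55.1% in that of Kcnip2. There were 5.32, 5.06, 3.07 and 3.27 counts of Kcnip4 for each count of Kcnip2 against 2.06, 2.26 and 1.20, without overlap, a ratio chosen after the values were seen and given as a description. Summed over the 4 genes, the levels were closer, from 345 to 404 CPM against 405 to 419 CPM, and apart by a narrow margin.

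Kcnab1, a cytoplasmic beta subunit that speeds the inactivation of Kv1 channels, was higher. At chr3:65109384-65378223 (plus strand), it had 149, 175, 146 and 126 CPM against 120, 111 and 93.7 CPM, and the groups were apart (log2 fold change 0.46, SE 0.114, adjusted p = 0.00408). With the GC offset the change was 0.29 and just missed the threshold (adjusted p = 0.0504). Kcne4, a small membrane protein that reduces currents of several Kv channels, was higher by 1.55 on the log2 scale (SE 0.525, adjusted p = 0.0350), but its groups overlapped. It had 7.90, 6.46, 27.2 and 5.27 CPM against 2.70, 6.40 and 2.80 CPM at chr1:78816758-78820028 (plus strand), so that 1 sample stood far above the others. Without that sample, temperature-responsive replicate 3, the change was 0.68 (adjusted p = 0.291), and without temperature-responsive replicate 1 or non-responsive replicates 1 or 3 it also missed the threshold.

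Among calcium-activated channels, the BK gene Kcnma1 fell and the intermediate-conductance gene Kcnn4 rose. BK channels open with voltage and calcium together and take part in the repolarization of the action potential. Kcnma1 (chr14:23289431-24014491, minus strand) had 111, 117, 140 and 148 CPM against 193, 209 and 232 CPM. The highest temperature-responsive sample lay well below the lowest non-responsive one, with a mean of 129 ± 17.9 (SD, n = 4) against 211 ± 19.5 (SD, n = 3). Its log2 fold change was -0.71 (SE 0.107, adjusted p = 0.000131), it stayed between -0.78 and -0.64 whichever sample was left out, and it was -0.85 with the GC offset. Of the members, Kcnma1 had the lowest adjusted p.

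Kcnn4, known chiefly from endothelium and blood cells, was rare. At chr7:24370263-24386690 (plus strand), 7, 13, 13 and 21 counts against 10, 3 and 4 counts gave 3.25, 7.0, 4.72 and 7.38 CPM against 3.00, 0.564 and 0.801 CPM. Its log2 fold change of 2.06 (SE 0.584, adjusted p = 0.0101) therefore rests on few counts. The groups were apart by a small margin, non-responsive replicate 2 was at the floor of 3 counts, and without that sample the call was lost (adjusted p = 0.0598). Kcnt1, a sodium-activated channel of large conductance, had the highest level per kilobase in the class (20.3 CPM per kilobase) and did not pass, with 128, 121, 131 and 138 CPM against 132, 121 and 174 CPM (log2 fold change -0.14, adjusted p = 0.392).

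The calcium- and sodium-activated class was the one class whose summed level did not overlap between the groups. The sum over its 8 genes was from 319.5 to 386 CPM in temperature-responsive samples (350 ± 28.6, SD, n = 4) and from 412 to 481.6 CPM in non-responsive ones (438 ± 37.7, SD, n = 3), and Kcnma1 made up the larger part of the difference between these means. The other 6 sums overlapped, for example those of the 17 Kv pore-forming genes (1527 to 1753 against 1642 to 1728 CPM, where only temperature-responsive replicate 1 reached the other group and the remaining 3 samples were all below it) and the 14 inward rectifiers (330.5 to 390 against 341 to 360 CPM). Over all 79 members the sum was 3742 ± 110 (SD, n = 4) against 3976 ± 70.9 CPM (SD, n = 3), and the highest temperature-responsive sum (3890 CPM) lay just below the lowest non-responsive one (3906 CPM).

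**Figure D3:**
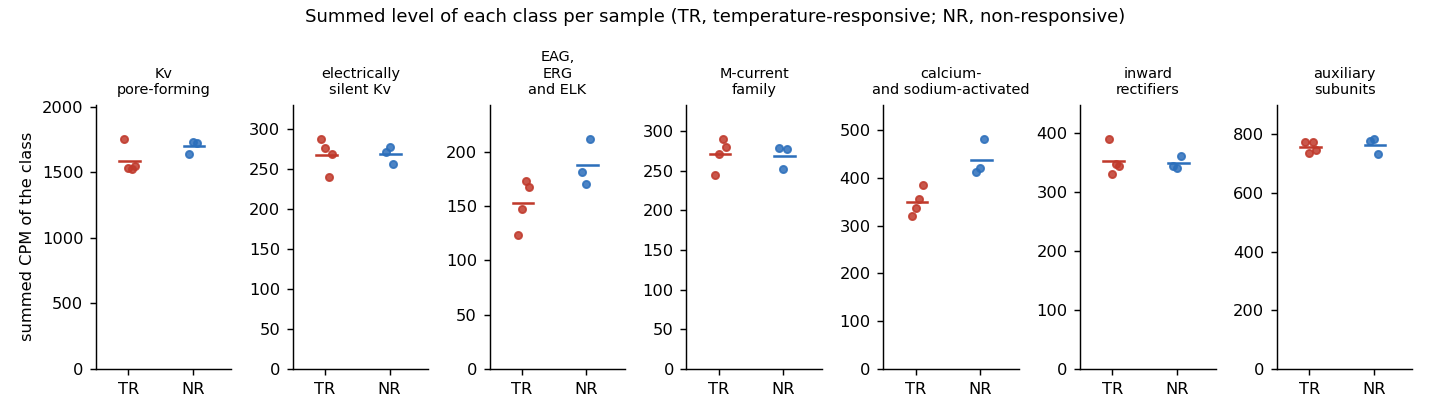
Summed level in CPM of each functional class (vertical axes, from 0, each with its own range) in temperature-responsive (TR) and non-responsive (NR) samples, 1 point a sample, with the mean of each group as a line. The sums overlap in all 7 classes but the calcium- and sodium-activated one, where temperature-responsive samples reach 386 CPM and non-responsive samples begin at 412 CPM.

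Inward rectifiers hold the membrane near the potassium equilibrium potential, and the GIRK subunits among them are opened by G proteins downstream of inhibitory transmitters. Kcnj9, which encodes GIRK3, was clearly lower in temperature-responsive samples. It had 14.9, 15.1, 18.9 and 19.3 CPM against 29.7, 36.3 and 37.6 CPM at chr1:172320501-172329318 (minus strand), with the groups well apart. The log2 fold change was -1.01 (SE 0.183, adjusted p = 0.000450), and lay between -1.10 and -0.95 whichever sample was left out. Kcnj6, which encodes GIRK2 and was chosen for mention after its values were seen, had 14.9, 11.8, 11.3 and 20.7 CPM against 20.1, 20.5 and 26.2 CPM, with temperature-responsive replicate 4 within the range of the other group (log2 fold change -0.59, adjusted p = 0.0502). Without that sample or non-responsive replicate 1, Kcnj6 passed (adjusted p of 0.0146 and 0.0441), as with the GC offset (adjusted p = 0.0313). The GIRK genes did not all move 1 way, since Kcnj5 lay in the other direction, with overlap (log2 fold change 0.34, adjusted p = 0.484).

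Kcnj4, a strong inward rectifier of forebrain neurons, was lower by a similar factor. Its levels were 4.18, 7.0, 12 and 9.14 CPM against 16.2, 16.9 and 17.8 CPM (chr15:79483714-79505241, minus strand). The non-responsive samples lay close together and the temperature-responsive samples were all below them. The log2 fold change was -1.04 (SE 0.274, adjusted p = 0.00648), the lowest of the members that passed, and the call was kept whichever sample was left out.

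Kcnj8 encodes the pore of an ATP-sensitive channel that is best known from pericytes and smooth muscle of vessels, where it pairs with the sulfonylurea receptor encoded by Abcc9. At chr6:142564837-142571614 (minus strand), it had 7.90, 8.61, 10.9 and 10.2 CPM against 6.89, 2.82 and 5.20 CPM, from 15 to 30 counts a sample. The groups were apart, with a log2 fold change of 0.96 (SE 0.356, adjusted p = 0.0428), but the call was lost without any one of 5 samples (temperature-responsive 2, 3 or 4, non-responsive 2 or 3) and with DESeq2. Abcc9 rose by more, from 4.79, 3.76 and 2.40 CPM to 20.0, 15.1, 14.9 and 10.5 CPM, and its log2 fold change was 2.06 (SE 0.334, adjusted p = 0.000212).

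Markers of endothelium and pericytes differed between the groups in the same direction as both genes. Of the 5 on the list (Cldn5, Pecam1, Flt1, Pdgfrb, Rgs5), 4 were higher and none lower in temperature-responsive samples, with a median log2 fold change of 1.71, and none was at 0 in any sample. Rgs5 was among these 4, but its groups overlapped and its call was lost with the GC offset (adjusted p = 0.124). It was also lost without temperature-responsive replicates 1 or 3 or non-responsive replicates 2 or 3. The summed level of the 5 markers ran from 75.2 to 204 CPM against 25.8 to 51.5 CPM. This sum was highest in temperature-responsive replicate 3, the sample in which Kcne4 stood apart. Kcnn4 did not follow this sum within the temperature-responsive group, since its highest levels were in replicates 4 and 2, where the sum was lowest (75.2 and 81.8 CPM). Abcc9 had the order of the sum in replicates 1, 2 and 4 (20.0, 15.1 and 10.5 CPM, with sums of 105, 81.8 and 75.2 CPM). In replicate 3, where the sum was highest, Abcc9 had 14.9 CPM. Kcnj8 was highest in replicate 3 (10.9 CPM) but next in replicate 4 (10.2 CPM). The part of vessel RNA in the values of Kcnj8, Kcne4, Kcnn4 and Abcc9 was not tested. Oligodendrocyte markers were also higher in part (2 of 5, summed 2756 to 3758 against 2286 to 2925 CPM), while neuronal markers moved both ways (2 higher and 2 lower of 5, summed 2211 to 2594 against 2073 to 2278 CPM), astrocyte markers likewise (2 higher and 1 lower of 5, summed 1083 to 1261 against 876 to 1068 CPM, without overlap) and microglial markers too (1 higher and 1 lower of 5).

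**Figure D4:**
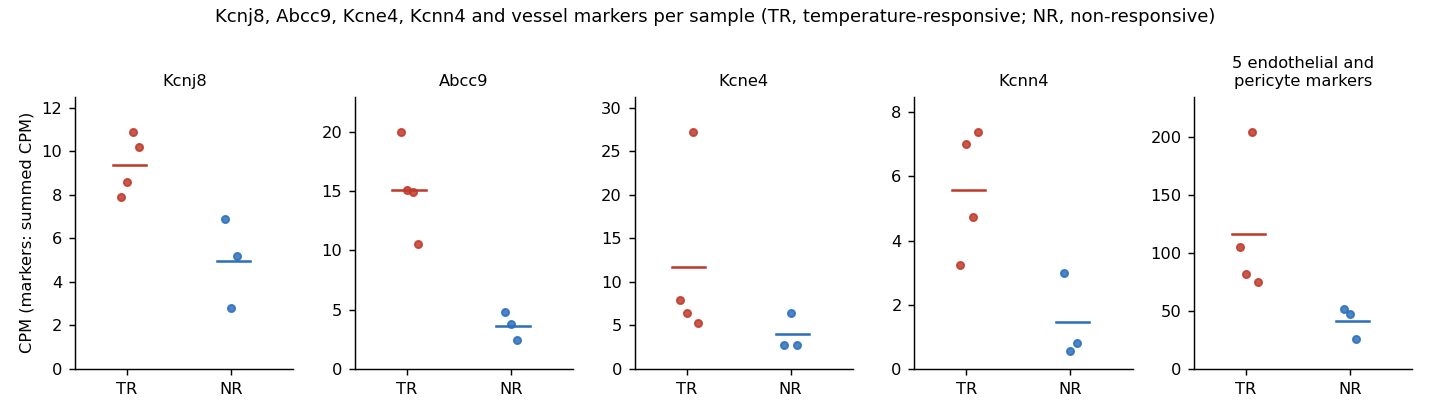
Levels in CPM of Kcnj8, Abcc9, Kcne4 and Kcnn4 and the summed level of 5 markers of endothelium and pericytes (vertical axes, from 0, each with its own range) in temperature-responsive (TR) and non-responsive (NR) samples, 1 point a sample, with the group mean as a line. Temperature-responsive replicate 3 is the highest sample for Kcne4 (27.2 CPM) and for the marker sum (204 CPM).

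Kcnj10, an inward rectifier of astrocytes and oligodendrocytes, had the highest level per kilobase in its class (33.8 CPM per kilobase). It had 238, 173, 180 and 167 CPM against 164, 170 and 186 CPM, with overlap (log2 fold change 0.12, adjusted p = 0.414, and slightly negative without temperature-responsive replicate 1). Kcnj16, which joins Kcnj10 in mixed channels and was chosen for mention after its values were seen, had 61.8, 46.8, 54.8 and 51.3 CPM against 50.0, 40.1 and 32.8 CPM (log2 fold change 0.40, adjusted p = 0.0505, and 0.0101 without non-responsive replicate 1). With the GC offset the change in Kcnj16 was 0.21 (adjusted p = 0.318). The summed astrocyte markers were higher in temperature-responsive samples, but single markers went both ways. Gja1 and Slc1a3 were higher (log2 fold changes 0.63 and 0.44), whereas Gfap was lower (log2 fold change -1.01, adjusted p = 0.000365). The part of astrocyte RNA in the values of Kcnj10 and Kcnj16 was not tested.

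In the remaining classes few members passed. Kcnh5, a member of the EAG family of slowly activating Kv channels, had 6.97, 14.5, 12 and 8.78 CPM against 5.39, 4.14 and 4.40 CPM at chr12:74897220-75177332 (minus strand). The groups did not overlap in these 15 to 33 counts a sample, with a log2 fold change of 1.18 (SE 0.344, adjusted p = 0.0117), and without temperature-responsive replicate 2 the adjusted p was 0.0539. Kcnh3, the gene of the class with the highest level per kilobase (12.1 CPM per kilobase), had 23.2, 31.2, 47.6 and 47.8 CPM against 55.4, 43.6 and 64 CPM and did not pass (log2 fold change -0.51, adjusted p = 0.0569). It passed without temperature-responsive replicate 3 or 4 or non-responsive replicate 2 (adjusted p of 0.0219, 0.0262 and 0.0357) and without TMM scaling (adjusted p = 0.0429).

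Silent Kv subunits form no channel alone and modify Kv2 channels. Kcng2 had 6.50, 14, 9.44 and 9.84 CPM against 15.3, 19.0 and 20.2 CPM, without overlap (log2 fold change -0.89, SE 0.250, adjusted p = 0.00942). Kcnv1 had the highest level per kilobase of the silent subunits (19.4 CPM per kilobase), with 59.9, 98.5, 78.4 and 87.5 CPM against 88.1, 99.7 and 82.5 CPM (log2 fold change -0.16, adjusted p = 0.396). With the GC offset it passed (log2 fold change -0.41, adjusted p = 0.0227). Of the 3 M-current genes tested, 0 passed with edgeR or with DESeq2, and 1 (Kcnq3) had an unadjusted edgeR p under 0.05. The M-current is a slow Kv current that muscarinic receptors shut off. Kcnq3, chosen for mention after its values were seen, was between 6.46 and 7.43 CPM in temperature-responsive and between 9.22 and 12.6 CPM in non-responsive samples, without overlap (log2 fold change -0.66, adjusted p = 0.0842, and 0.0379 with the GC offset).

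Fold changes over the members were related to transcript composition, as over all genes. Spearman's rho between the GC content of the longest transcript and the log2 fold change was -0.26 over the 64 members and -0.34 over 14293 genes, and 0.028 over the members with the offset (genes share samples and are not independent, so no p is given). Median GC content was 47.5% in the 8 members that were higher and 54.9% in the 10 that were lower, against 50.8% in all members tested. Kcnma1 did not follow this order, since its transcript had a GC content of 45.2% and its level fell. Of the 18 members called without the offset, 14 were also called with it, and the 4 that were not (Kcnd2, Kcnip4, Kcnab1, Kcne4) had all been higher.

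**Figure D5:**
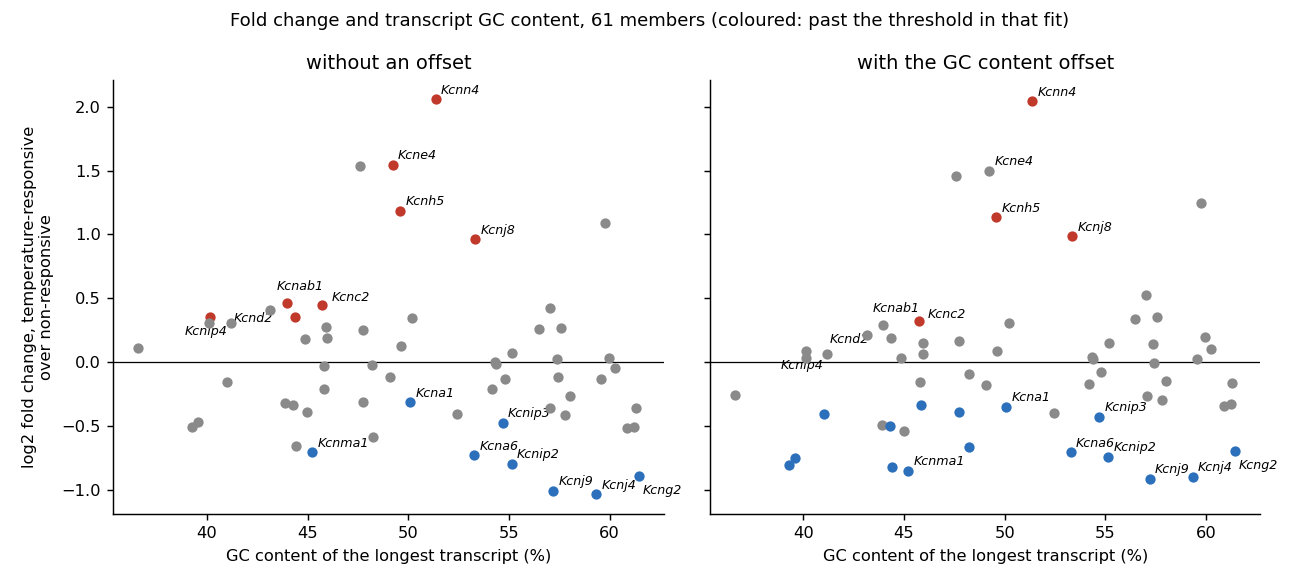
Log2 fold change (vertical axis) against GC content of the longest transcript (percent, horizontal axis) for 61 of the 64 members tested, without (left) and with (right) an offset for GC content. Coloured points passed the threshold in that fit, and the number of rises is 8 on the left and 4 on the right.

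Proteins outside the Kcn symbols that bind these channels were read from the same test. Of 15 partner genes, 13 were tested, 2 were higher and 4 lower (15.1% and 14.9% over all genes), and the median log2 fold change was -0.030. Beside Abcc9, the rise was in Vapa, which tethers Kv2 clusters to the endoplasmic reticulum (log2 fold change 0.59, adjusted p = 0.000460), while its relative Vapb fell by 0.32 on the log2 scale (adjusted p = 0.0461), a call lost with DESeq2 and without temperature-responsive replicates 2 or 4 or non-responsive replicates 2 or 3 (adjusted p of up to 0.151). Dpp6, which speeds Kv4 gating, fell from 204, 214 and 252 CPM to 175, 154, 167 and 183 CPM (log2 fold change -0.40, adjusted p = 0.00458), opposite to Kcnd2, and without non-responsive replicate 3 it just missed the threshold (adjusted p = 0.0537). Dpp10, the other Kv4 partner on the list, lay in the direction of Kcnd2 with the groups apart (log2 fold change 0.26). It just missed the threshold (adjusted p = 0.0505), passed with DESeq2 (adjusted p = 0.0352), and was at -0.03 with the GC offset (adjusted p = 0.852). Cntn2 (log2 fold change -0.59, adjusted p = 0.00310) and Lgi1 (log2 fold change -0.38, adjusted p = 0.0188), both found in axonal Kv1 complexes, also fell, although Lgi1 did not pass without temperature-responsive replicates 1 or 2 or non-responsive replicate 2 (adjusted p of up to 0.105). Adam22 and Cntnap2 of the same complexes did not pass (log2 fold changes 0.16 and 0.085). The BK gamma subunit genes Lrrc26 (1 to 9 counts) and Lrrc52 (0 to 3 counts) were not tested.

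The count filter left out 15 members, among them Kcna10 (0 to 5 counts), Kcnd1 (0 to 5), Kcne1 (0 to 11), Kcne3 (1 to 8), Kcng3 (0 to 13), Kcnh6 (2 to 11), Kcnj1 (0 to 7), Kcnj14 (2 to 10), Kcnj15 (2 to 13), Kcnmb1 (3 to 16), Kcnmb3 (0 to 9), Kcnq1 (1 to 11), Kcnrg (3 to 9) and Kcnv2 (0 to 9). The other 46 tested members did not pass the threshold, and the groups were apart in 8 of them. Over all genes tested, 35.4% were apart and 26.1% were both called and apart, so groups apart without a call were not particular to channel genes. An adjusted p above the threshold does not show equal levels.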

How the data were processed

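RNA of 7 samples of pooled ERα-ZsGreen neurons was amplified with SMART-seq V4 and made into Nextera XT libraries, a kit that does not mark strand. The authors aligned reads to mm10 with STAR 2.6.0, removed PCR duplicates with RmDup and deposited raw htseq-count (HTSeq 0.9.1) read counts per gene symbol, without normalization. Removing duplicates without molecular identifiers can lower the counts of abundant genes. Annotation, strand setting and the treatment of overlapping genes are not given in the sources used here.

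The test was edgeR 4.0.16 (R 4.3.3, robust quasi-likelihood fit, TMM, two-sided, no covariate), with Benjamini-Hochberg adjustment over the 14407 genes that reached 10 counts in 3 or more samples. Each SE was the size of the log2 fold change divided by the square root of F. Alternatives included DESeq2 1.42.0 and offsets for GC content made with mgcv 1.9.3. The fit was run on simulated data with 194 changed genes among 14627 tested. It called 72.7% of the changed genes, all of these in the right direction, and 6% of its calls were false. The simulation gave every gene the same spread. It held no GC trend and no excess of genes detected in the group with lower totals, so it does not bear on either. Coordinates, transcript lengths and coding sequences came from GENCODE M21. Floors of 3 counts cover counting error only. Samples were grouped and numbered by their labels.

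The members, classes, partner and marker lists were chosen with earlier results of these data known. Named in full were members past the threshold with groups apart (up to 10 rises and 10 falls) and the member of highest CPM per kilobase in each class. The other members past the threshold and the partner genes past it were named with their log2 fold change, and untested members with their counts. A few other members were named after their values were seen, as stated beside them. Some members are not reported here.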

Additional observations from a re-analysis of the deposited data

Results flagged for a closer look

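Among the 4 temperature-responsive samples, the levels of the 64 tested members and 8 summed levels were searched for a sample far from the others, by the share of the group's range that lies between it and its nearest neighbour. By chance about 1 in 20 such groups of 4 has a share above Dixon's critical value, and 6 of the 72 measures did. Temperature-responsive replicate 1 was the high sample for Kcns3, a silent subunit (99.4 CPM against 21.4 to 30.7 CPM in the other 3, share 0.881), for Kcnab3, a Kv beta subunit (114 against 31.2 to 43.9 CPM, share 0.846), and for the summed level of the Kv pore-forming genes (1753 CPM, share 0.915). Without that sample Kcns3 passed the threshold (log2 fold change 0.74, adjusted p = 0.0194, against 1.54 and 0.157 with it), and Kcnab3 turned from 0.07 (adjusted p = 0.935) to -0.48 (adjusted p = 0.0392).

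Temperature-responsive replicate 3 was the high sample for Kcne4 (27.2 CPM against 5.27 to 7.90 CPM, share 0.88). Temperature-responsive replicate 2 was the low sample for the ERG channel gene Kcnh2 (23.7 CPM against 39.4 to 40.3 CPM, share 0.943) and for Kcnj5, a GIRK subunit (5.92 CPM against 7.62 to 7.90 CPM, share 0.862). Neither gene passed the threshold (adjusted p of 0.0931 and 0.484), and their causes were not tested.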

How the results depend on the processing

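Of the 18 members called, DESeq2 also called 17, edgeR with DESeq2's size factors 18, upper-quartile normalization 17, library size alone 17, the filter of at least 1 count 16, the filter of 10 counts in every sample 15 of the 15 it tested, and counts drawn down to the lowest total 12 of the 17 it tested, all in the same direction. Members called in all numbered 24 with library size alone (7 higher, 29.2%, and 17 lower, against 40.8% higher of all genes called) and 27 with the filter of at least 1 count (9 and 18, against 46.4%), while 31.5% and 24.7% of all genes were called. The GC offset called 22 (4 higher and 18 lower, against 8 and 10). With genes detected as a covariate, 0 members and 1 gene in all were called. Leaving out 1 sample gave 14 to 21 members, and 2620 to 4583 genes in all against 4327. The mean correlation of deviations from the group means was -0.0528 over the 3 same-numbered pairs and 0.0174 over the 9 other pairs. So few pairs cannot show whether same-numbered samples shared an animal, which the labels do not say. The replicate block called 20 members (8 higher and 12 lower) and 4124 genes, and with the GC content offset 20 members and 2861 genes. Per kilobase, the log2 ratio of summed levels was -0.17 for calcium- and sodium-activated genes (-0.33 in CPM) and -0.045 for all members (-0.088 in CPM).

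Among the 29 named members tested, signs turned only in 4 that had not passed the threshold: Kcnt1 (0.12 with the covariate, -0.24 to 0.041 leaving out 1 sample), Kcnj10 (-0.0061 to 0.19 leaving out 1 sample), Kcnab3 (-0.0010 with library size alone, -0.019 with the filter of at least 1 count, -0.48 to 0.29 leaving out 1 sample) and Kcnc1 (-0.035, -0.063, and -0.11 to 0.12 likewise). The causes were not tested. Other named members that had not passed did so in at least 1 alternative (Kcna2, Kcnh2, Kcnh3, Kcnj6, Kcnj16, Kcnq3, Kcns3, Kcnv1). Drawing counts down to the lowest total lost Kcnip3, Kcnip4, Kcnj8, Kcnh5 and Kcne4 and left Kcnn4 untested. Kcnn4, Kcnj8, Kcnh5, Kcne4 and Kcnj4 had under 100 counts in every sample.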
